A study of Mus musculus with 6 samples.

Results

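The 10 activated microglia genes are linked to how microglia, the resident immune cells of the brain, respond to damage, lipid debris or microbial products. They are Spp1, Lpl, Apoe, Axl, Cd68, Cybb, Trem2, Cd14, Tlr2 and Tlr4. They were found by symbol, letter case aside, and each of the 10 matched 1 row of a table of 22050 genes. The table holds RNA sequencing of the hippocampus, the brain region needed for forming new memories, of young mice in 2 groups of 3 libraries. Control animals form the first group, and animals given repeated injections of lidocaine, a local anaesthetic that acts on neuronal sodium channels, form the second. The table's column names give group and replicate but not age, which comes from the sample titles. Strain, dose, number of injections and what the controls were given are not stated in the sources used here, and the old mice of the design were not analysed here. The comparison asks whether genes of microglial activation differ with lidocaine in young animals.

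Microglia detect microbial and damaged-cell molecules with Toll-like receptors, whose co-receptor CD14 hands lipopolysaccharide to TLR4. TREM2 binds lipids and apolipoproteins and signals through the adaptor TYROBP, and in mouse models of neurodegeneration this route leads microglia into a state with raised Apoe, Lpl, Axl and Spp1. Several of these genes are also used by other brain cells: Apoe is made in large amounts by astrocytes, and Lpl by hippocampal neurons. In bulk tissue, fewer cells of a type and less RNA per cell cannot be told apart.

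Estimated counts summed to between 13887604 and 16984995 per library. All 22050 rows carry rat Ensembl identifiers although the labels name the mouse, so no coordinates are given. Were reads of the mouse assigned to rat gene models, a level would also depend on the likeness of the gene in the 2 species, so levels of different genes are compared here as the table lists them. The labels do not say that each library came from a separate animal, and p-values therefore measure the spread between these libraries, which may be technical. Microglial RNA was present in all 6 libraries: of 18 matched homeostatic microglia markers outside the 10 genes, 17 passed the filter on low counts, and Siglech was listed at 0 throughout. Trem2 is on that marker list too and was left out of it here.

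None of the 10 activated microglia genes was called different between lidocaine and control hippocampus. Of these, 9 passed the count filter and were tested, and 0 had a Benjamini-Hochberg-adjusted p under 0.05 in edgeR's quasi-likelihood test, where 0.0149% of all 13408 tested genes were called. At an unadjusted p under 0.05, edgeR gave 2 of the 9, Spp1 with a negative and Lpl with a positive fold change, against 4.36% of all tested genes (2.36% lower and 2.0% higher with lidocaine). The filter admitted Spp1 through the control libraries alone, so its negative direction was built in. DESeq2, an alternative test, called 0 of the members as well, against 0.131% of the 16857 genes to which it gave an adjusted p. It had 1 member at an unadjusted p under 0.05, for which no share over all genes was counted in DESeq2. Among the 9, 2 had a positive and 7 a negative log2 fold change, with a median of -0.12, beside a median of 0.00 over all tested genes. The members were chosen with earlier results of these data known, so these counts describe them and are not a test.

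The levels per transcript length, in FPKM (fragments scaled to transcript length and to library depth), split the genes into 2 tiers. Lpl, Apoe and Axl averaged 20.3, 14.5 and 14.5 FPKM over the 6 libraries, while the median gene with counts in every library averaged 4.95 FPKM. The other 7 lay under 2 FPKM, from Tlr2 at 1.07 through Tlr4 at 0.55 to Spp1 at 0.335, Cd68 at 0.325, Cybb at 0.302, Trem2 at 0.265 and Cd14 at 0.253. The ranges of Axl and Tlr2, the neighbours on either side of the gap, did not overlap, whereas every other pair of neighbours in this order had overlapping ranges over the 6 libraries. Tlr2 still exceeded Tlr4 within each of 6 libraries, as did Tlr4 over Spp1, but Spp1 exceeded Cd68 in 3 of 6 and Cybb exceeded Trem2 in 3 of 6, so the lowest 5 have no order beyond their spread.

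**Figure D1:**
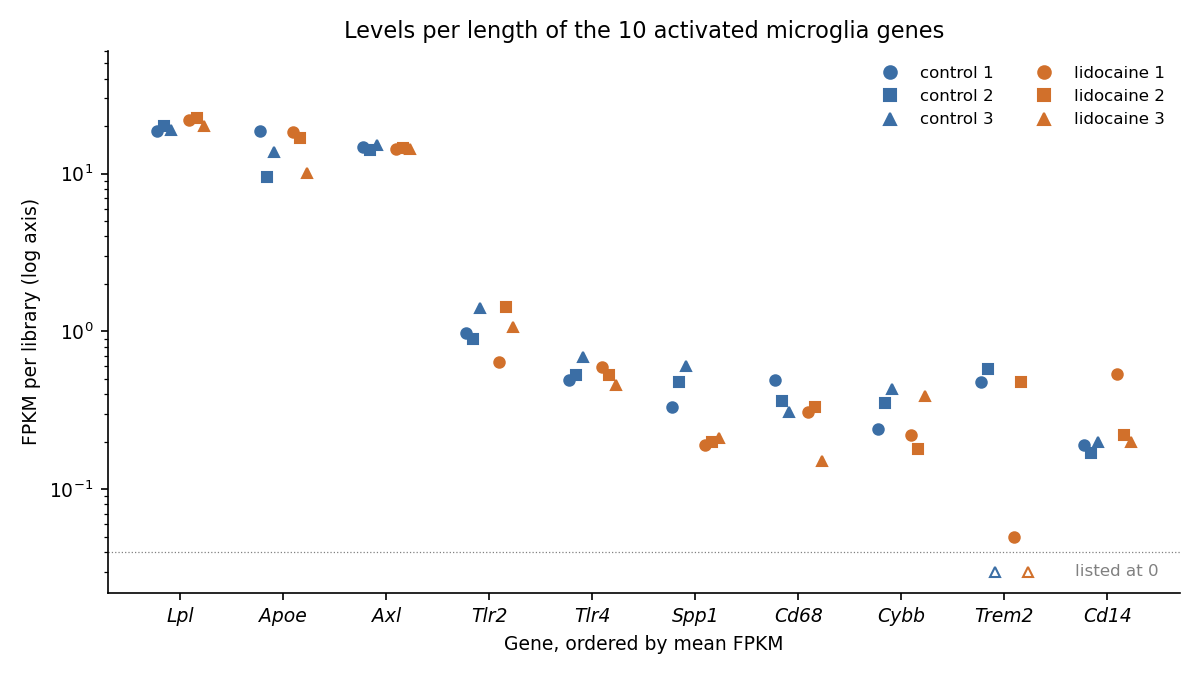
FPKM per library on a log axis for each of the 10 genes, ordered by mean level, with controls in blue, lidocaine in orange and replicate numbers by symbol; open symbols stand for values listed at 0. Lpl, Apoe and Axl lie between 9.54 and 22.64 FPKM, and the other 7 between 0 and 1.42.

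Among the receptors for microbial and damage signals, Tlr2, which recognises bacterial lipoproteins, had 62, 63 and 87 counts in controls 1 to 3, against 47, 99 and 75 in lidocaine 1 to 3. The groups overlapped, with lidocaine 1 lowest by count and by CPM, and the highest value in lidocaine 2 by count and in control 3 by CPM. Its log2 fold change was -0.09 ± 0.32 (SE), with a 95% interval from -0.83 to 0.66. Tlr4, the receptor for lipopolysaccharide, had 40, 48 and 55 counts in controls 1 to 3, against 56, 48 and 42 in lidocaine 1 to 3. Here too the groups overlapped almost fully, with a control mean of 3.24 ± 0.61 CPM (counts scaled to library size with TMM factors) and a lidocaine mean of 2.97 ± 0.33 CPM (SD, n = 3 per group), and the log2 fold change was -0.12 ± 0.23 (SE). The sign of Tlr2 turned without control 3 (0.14) or lidocaine 1 (0.18), and that of Tlr4 without control 3 (0.04).

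Cd14, which presents lipopolysaccharide to TLR4, was counted 8 times in each control library and 26, 10 and 9 times in lidocaine 1 to 3. Lidocaine 1 alone stood above the rest, and the groups overlapped after scaling to depth. With 1 library over the filter's cutoff of 0.625 CPM, Cd14 was not tested, and its control mean was 0.543 CPM and its lidocaine mean 0.905 CPM. Without lidocaine 1 the lidocaine mean was 0.593 CPM, and the log2 ratio of the means went from 0.74 to 0.13. In an edgeR fit with no filter, Cd14 had a log2 fold change of 0.74 with a Benjamini-Hochberg-adjusted p of 0.966.

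Trem2, the lipid receptor of microglia, was listed at 13.67, 18.09 and 0 estimated counts in controls 1 to 3 and at 1.67, 15.03 and 0 in lidocaine 1 to 3. Each group thus held 1 library at 0, and 3 of the 6 libraries lay above 10 counts. The counts above 0 are fractional, and whether a value listed at 0 is an absence or a failed estimate was not tested. Map3k7, a signalling kinase used by most cell types and named here after its values were seen, was also listed at 0 in all 6 libraries. Tyrobp, the adaptor TREM2 signals through, had whole counts of 123, 134 and 82 in controls 1 to 3, against 131, 126 and 126 in lidocaine 1 to 3. It was present in both libraries where Trem2 was at 0. The interval of Trem2's log2 fold change ran from -4.33 to 2.32, so that folds from 0.0496 to 4.99 lay within it.

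Axl, a receptor tyrosine kinase that recognises dying cells through the bridging ligand GAS6, had the smallest range of the 10 genes relative to its level, from 78.3 to 88.7 CPM over the 6 libraries. Controls 1 to 3 had 1221, 1248 and 1243 counts, against 1332, 1315 and 1297 in lidocaine 1 to 3. After scaling, the control mean was 84.0 ± 4.99 CPM and the lidocaine mean 80.5 ± 1.88 CPM (SD, n = 3 per group), with overlapping groups. The log2 fold change was -0.06 ± 0.07 (SE), and the 95% interval of the fold ran from 0.861 to 1.07. Among its relatives, Tyro3 was listed at 3.75 times the level of Axl per length, at 54.4 FPKM. Mertk, the main phagocytic receptor of the family, was listed at 12.5 FPKM. Mertk had a log2 fold change of 0.08 ± 0.12 and Gas6 of -0.03 ± 0.06 (SE).

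**Figure D2:**
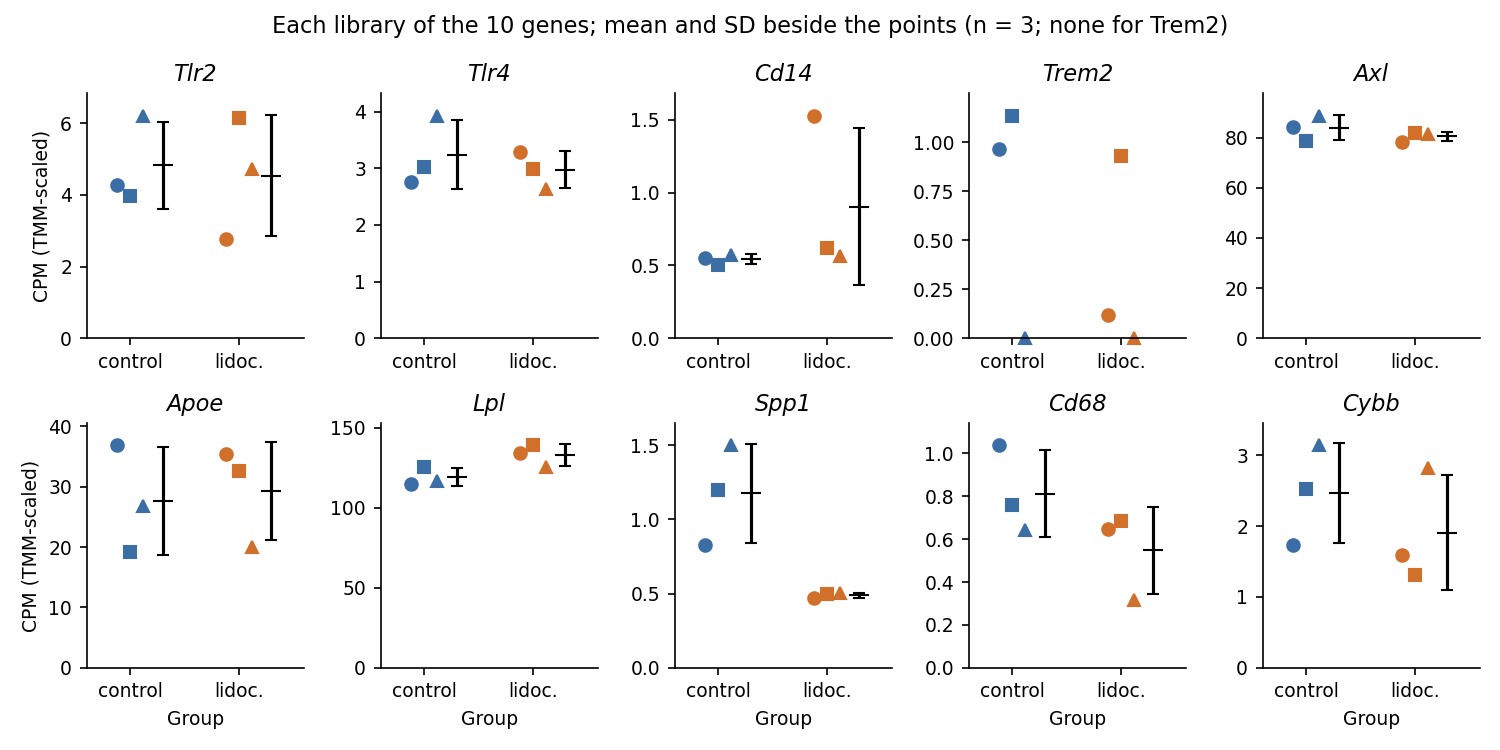
CPM in each library for the 10 genes, with the mean and SD of each group beside the points (n = 3; none is drawn for Trem2, which is listed at 0 in 1 library per group). Spp1, which passed the count filter through the control libraries alone, is the gene whose groups do not overlap, and Cd14 has 1 high library, lidocaine 1.

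Apoe, the lipid carrier that astrocytes make in large amounts and activated microglia add to, varied widely within each group. It was listed at 533.37, 302.83 and 376.27 estimated counts in controls 1 to 3 and at 601.41, 524.08 and 317.92 in lidocaine 1 to 3. Control 2 and lidocaine 3 were low and control 1 and lidocaine 1 high, so that the groups overlapped and the lowest library had 51.9% of the CPM of the highest. The spread within a group was 32.2% of the mean in controls and 27.9% with lidocaine, where counting error alone would give 5.0% and 4.6%. Apoe counts are fractional in all 6 libraries, and its level ranked 3548 among 22050 genes by FPKM, which is low for a transcript known as abundant in mouse brain. Whether the rat identifiers bear on this level was not tested. The log2 fold change of 0.09 ± 0.30 (SE) had an interval from -0.64 to 0.82 and turned negative without control 2 (-0.12) or lidocaine 1 (-0.07).

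Lpl, lipoprotein lipase, which frees fatty acids from lipoproteins, had the highest level of the 10 genes. Controls 1 to 3 had 1666, 1988 and 1639 counts, against 2287, 2239 and 1994 in lidocaine 1 to 3. Scaled to depth, the highest control (125.5 CPM) lay just above the lowest lidocaine library (125.3 CPM), so that the groups barely overlapped. The log2 fold change was 0.16 ± 0.07 (SE), with a 95% interval from 0.005 to 0.31. Its p in edgeR was 0.0445 unadjusted and 0.995 after Benjamini-Hochberg adjustment. Without control 1, control 3, lidocaine 1 or lidocaine 2 the unadjusted p in edgeR lay between 0.0913 and 0.131.

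Spp1, osteopontin, a secreted protein that binds integrins and CD44, was the one gene of the 10 whose groups did not overlap, compared with 9.98% of all tested genes, or 5.09% in the direction of lower values with lidocaine. The controls had 12, 19 and 21 counts, and the lidocaine libraries had 8 counts each. The control mean was 1.18 ± 0.34 CPM and the lidocaine mean 0.490 ± 0.017 CPM (SD, n = 3 per group). The fold was 0.421, with a 95% interval from 0.229 to 0.772 and an unadjusted p of 0.0112 in edgeR, and the adjusted p was 0.995 with Benjamini-Hochberg adjustment over all tested genes. Spp1 passed the filter through the 3 control libraries, since 0 lidocaine libraries reached the cutoff, and a gene that enters in this way had to be higher in controls. The spread of 3.5% between the lidocaine libraries is below the 35.4% that counting error gives at 8 counts, so it does not measure how much Spp1 varies between samples. The unadjusted p was 0.0537 without control 3 in edgeR and 0.0568 in DESeq2.

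The summed FPKM of 10 oligodendrocyte markers ranged from 2923 to 3348 in controls and from 2144 to 2865 with lidocaine. That of 8 matched meningeal fibroblast markers ranged from 32.0 to 34.7 in controls and from 35.6 to 43.9 with lidocaine. The groups did not overlap, with lower sums with lidocaine for the first list and higher ones for the second, and their part in the Spp1 and Lpl values was not tested. Homeostatic microglia markers summed to between 134.2 and 167.7 FPKM in controls and between 154.6 and 163.6 with lidocaine, with overlapping groups. Relative to that sum, Spp1 stood at 0.197%, 0.358% and 0.398% in controls 1 to 3 and at 0.116%, 0.129% and 0.136% in lidocaine 1 to 3, while the other 9 genes still overlapped between groups. These ratios rest on the same Spp1 counts, which passed the filter through the controls alone, and so add no separate support.

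Cd68, a lysosomal glycoprotein used to stain phagocytic microglia, had 15, 12 and 9 counts in controls 1 to 3, against 11, 11 and 5 in lidocaine 1 to 3. The groups overlapped, and the fold of 0.679 had a 95% interval from 0.335 to 1.38. Csf1r, the growth factor receptor that microglia depend on, was listed at 104 times the level of Cd68 per length. Whether the rat identifiers bear on these levels was not tested. Cybb, which encodes the catalytic subunit NOX2 of the phagocyte NADPH oxidase, had 25, 40 and 44 counts in controls 1 to 3, against 27, 21 and 45.01 in lidocaine 1 to 3. Its highest value of all was in lidocaine 3 by count, and by CPM in control 3, so the groups overlapped. The fold of 0.774 had an interval from 0.422 to 1.42. Cyba, the membrane partner of NOX2, was listed at 8.6 times the level of Cybb per length. It had a log2 fold change of -0.04 ± 0.24, and the cytosolic subunit Ncf1 had -0.15 ± 0.22 (SE).

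**Figure D3:**
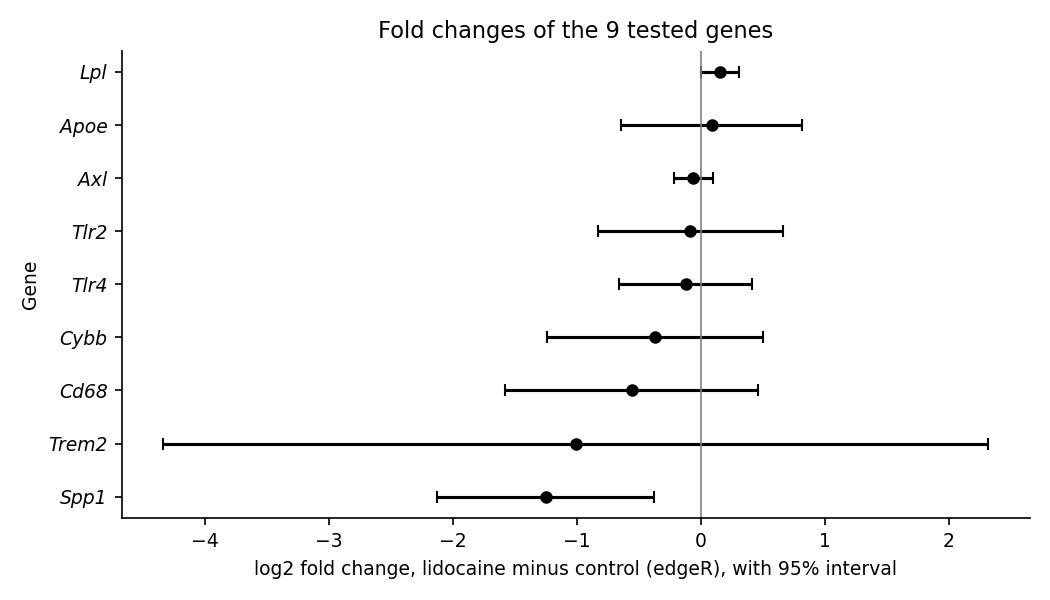
Log2 fold change of lidocaine against control in edgeR, with its 95% interval, for the 9 tested genes. Spp1 at -1.25 and Lpl at 0.16 have intervals that do not cross 0, the intervals of the other 7 do, and that of Trem2 is the widest. Spp1 passed the count filter through the control libraries alone, so its negative direction was built in.

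The 95% intervals give, gene by gene and with no correction for their number, the sizes of change that these libraries leave in range. For 8 of the 9 tested genes the interval ended below a fold of 2, Trem2 being the exception. For 5 of them, Lpl, Apoe, Axl, Tlr2 and Tlr4, it also stayed above a fold of 0.5. A fall to that size lay within the interval for Spp1, Cd68, Cybb and Trem2, all of them genes with means below 40 counts per library. Spp1 passed the count filter through the control libraries alone, so its direction was built in. Its interval is therefore no bound on a rise or a fall.

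The table's own annotation places several of the genes under shared terms, which may reflect the functions for which they are known. Lipopolysaccharide binding is attached to Cd14, Tlr2, Tlr4 and Trem2, out of 25 genes with that term in the whole table. Lipoprotein particle binding is attached to Apoe, Lpl and Trem2, out of 7. The plasma membrane is given as a location for 9 of the 10, all but Spp1, compared with 20.3% of the table. Neither the lipopolysaccharide group nor the lipoprotein group had a gene called among those tested, and each holds the sparsely counted Trem2.

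Genes that work with these 10 were examined in 9 lists covering Toll-like receptor signalling, TREM2 signalling, apolipoprotein E and lipid handling, partners of lipoprotein lipase, TAM receptors, the NADPH oxidase, osteopontin receptors, phagocytosis and lysosome, and other genes of disease-associated microglia. The lists held 155 symbols beside the 10 genes, of which 144 matched a row and 112 were tested. Called genes numbered 0 in edgeR with Benjamini-Hochberg adjustment, where 0.0149% of all tested genes were called. DESeq2 called 0 of the listed genes as well, against 0.131% of all genes to which it gave an adjusted p. The median log2 fold change in edgeR was 0.00. In edgeR, 2 of the 112 (1.79%) had an unadjusted p under 0.05, 1 in each direction, against 4.36% of all tested genes. The 3 values of a group lay beyond those of the other in 8 genes (7.14%), against 9.98% of all tested genes.

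In the Toll-like receptor list, 24 genes were tested, 10 with a positive and 14 with a negative fold change. Sigirr, an inhibitory member of the receptor family, was counted 17, 27 and 32 times in controls and 12, 16 and 16 times with lidocaine, with groups that did not overlap. It had a log2 fold change of -0.93 ± 0.36 (edgeR, unadjusted p = 0.0341, Benjamini-Hochberg-adjusted p = 0.995). The kinase Ikbkb, which releases NF-kappa B, had 0.45 ± 0.19, the ubiquitin ligase Traf6 -0.28 ± 0.15 and the RNA sensor Tlr7 0.34 ± 0.18. Myd88, the adaptor shared by most of these receptors, was at 0.00 ± 0.15, all as log2 fold changes with SE. None of these 5 genes was called.

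For the TREM2 list, 6 of the 10 tested genes had a positive and 4 a negative fold change. Adam17, a protease that sheds TREM2, had a log2 fold change of -0.15 ± 0.08 (SE) with groups that did not overlap, at counts of 547 to 618 in controls and 570 to 605 with lidocaine before scaling. The phosphatase Inpp5d had 0.18 ± 0.13, the exchange factor Vav1 0.33 ± 0.33 and the adaptor Grb2 0.05 ± 0.06. None was called, and their intervals all crossed 0.

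Lipid handling genes were tested in 18 cases, 10 positive and 8 negative, with a median log2 fold change of 0.06. Vldlr, a receptor for apolipoprotein E, was listed at 880.24, 1020.30 and 923.13 counts in controls and at 1219.09, 1182.91 and 1172.26 with lidocaine. Its groups did not overlap, and its log2 fold change was 0.20 ± 0.06 (edgeR, unadjusted p = 0.0155, Benjamini-Hochberg-adjusted p = 0.995). Plin2, which coats lipid droplets, had 0.27 ± 0.14, Apod -0.18 ± 0.13 and the lysosomal lipase Lipa -0.21 ± 0.16. The cholesterol exporter Abca1, at 0.07 ± 0.09, and the Apoe receptor Lrp1, at -0.03 ± 0.08, had intervals that crossed 0 (log2 fold change, SE). Neither was called.

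Partners of lipoprotein lipase gave 8 tested genes, 5 positive and 3 negative. Gpihbp1, which anchors the enzyme on capillary walls, was counted 0, 2 and 0 times in controls and 4, 7 and 3 times with lidocaine and was not tested at these counts. Lmf1, needed to mature the enzyme, had a log2 fold change of -0.17 ± 0.10 (SE) with groups that did not overlap. Sort1 had a log2 fold change of 0.08 ± 0.07, and Angptl4, an inhibitor of the enzyme, of -0.11 ± 0.17 (SE). Apoa5 had 0.86 ± 0.77, with 45 of its counts in lidocaine 1 against 4 to 18 elsewhere, and -0.19 without that library. The 4 genes were not called.

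**Figure D4:**
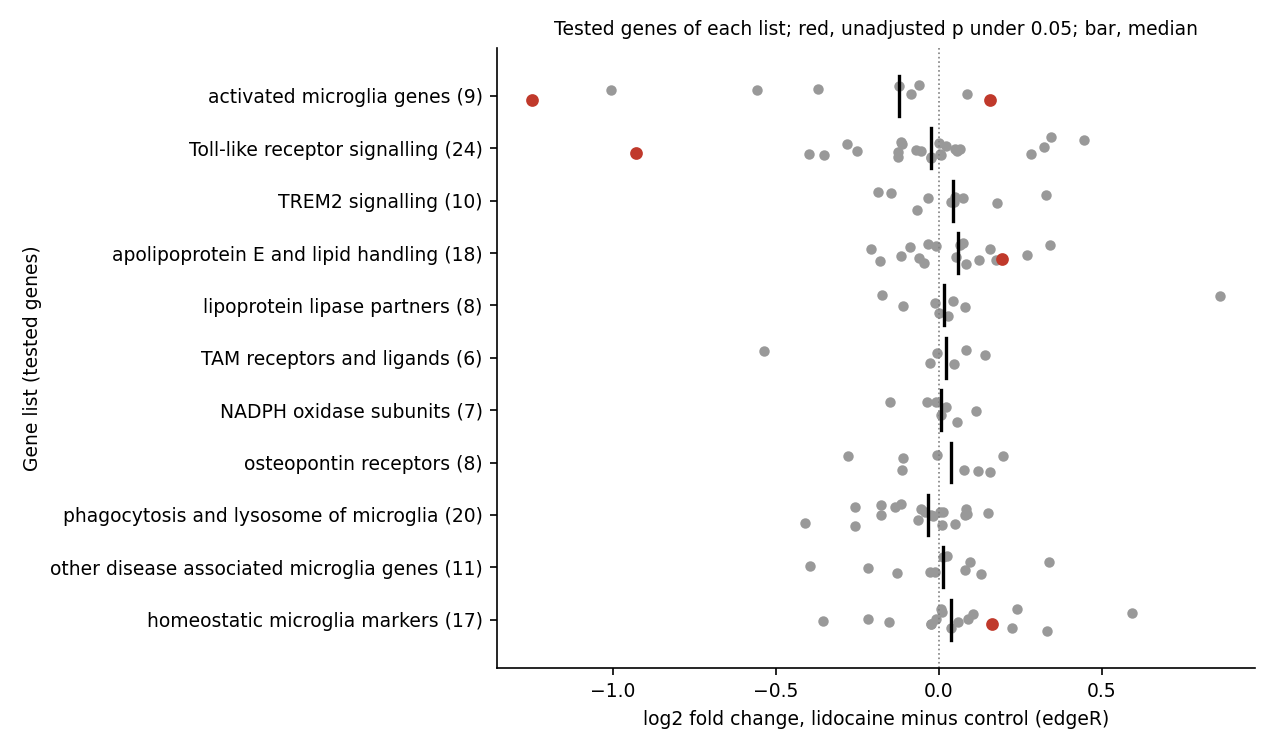
Log2 fold change in edgeR of each tested gene by list, with the number tested in brackets, a bar at the median and red points for an unadjusted p under 0.05. The medians of the 9 pathway lists and of the homeostatic microglia markers lie between -0.03 and 0.06, and that of the activated microglia genes at -0.12.

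Osteopontin receptors gave 8 tested genes, 4 in each direction. Cd44 had a log2 fold change of 0.12 ± 0.12, Itgb1 of -0.11 ± 0.07, Itga9 of 0.16 ± 0.17 and Itgb3 of -0.28 ± 0.37 (SE), and none was called. The groups of Itgb1 and Itgb3 did not overlap in CPM, with lower values with lidocaine, as for 5.09% of all tested genes. In FPKM the groups of both genes overlapped. Itgb1 had 18.24 to 20.86 in controls and 17.96 to 18.37 with lidocaine, and Itgb3 0.18 to 0.24 and 0.16 to 0.22. Itgb3 had 8 to 12 counts per library, near the filter's cutoff. The TAM receptor list had 3 positive and 3 negative values among 6 tested genes, with Socs3, a brake on cytokine signalling, at -0.54 ± 0.52 and the ligand Pros1 at 0.05 ± 0.14. The oxidase list had 4 positive and 3 negative values among 7, with Sod2 at 0.06 ± 0.09, Rac2 at 0.12 ± 0.31 and Sod3 at 0.02 ± 0.13. No gene of these 3 lists had an unadjusted p under 0.05 in edgeR.

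Phagocytosis and lysosome genes gave 20 tested genes, 8 positive and 12 negative. Cd9, a tetraspanin, had a log2 fold change of -0.18 ± 0.08 and non-overlapping groups, Gpnmb -0.26 ± 0.15, Lamp2 -0.11 ± 0.09 and the protease Ctsb 0.08 ± 0.06 (SE). Of 18 matched genes in the list of other disease-associated microglia genes, 11 were tested, 6 positive and 5 negative. The genes known to rise most sharply in that state had few or no counts: Itgax was counted 3, 2 and 4 times in controls and 1, 0 and 0 times with lidocaine, Clec7a 0 to 2 times, and Cst7 was listed at 0 in all 6 libraries. These 3 were below the filter and were not tested. Whether a value listed at 0 shows absence was not tested either. Ctsa had -0.40 ± 0.26, Cadm1 0.34 ± 0.28, B2m -0.13 ± 0.12 and the growth factor Igf1 -0.22 ± 0.25, with no gene called.

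Homeostatic microglia markers, the nearest comparison set, had 11 positive and 6 negative values among 17 tested genes and a median log2 fold change of 0.04. Tmem119, a marker of resident microglia, was counted 589, 635 and 580 times in controls and 751, 735 and 749 times with lidocaine, with groups that did not overlap and a log2 fold change of 0.16 ± 0.07 (edgeR, unadjusted p = 0.0499, Benjamini-Hochberg-adjusted p = 0.995). Tmem119 was the 1 gene of the 17 at an unadjusted p under 0.05 in edgeR, against 4.36% of all tested genes. Its unadjusted p was 0.0533 to 0.120 in edgeR when each library was left out, and 0.0811 in DESeq2. P2ry12 had 0.22 ± 0.15, Aif1 0.09 ± 0.17, Csf1r 0.06 ± 0.10 and Cx3cr1 0.01 ± 0.15 (SE). These 5 were all positive, while the 6 negative log2 fold changes ran from -0.36 to -0.01. None of the 17 was called.

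Markers of cells that could add RNA for the same genes were compared by their summed FPKM. Perivascular macrophage markers, 7 of 8 matched, summed to 3.78 to 5.0 FPKM in controls and 3.82 to 5.21 with lidocaine. Those of monocytes and neutrophils, 7 of 11 matched, summed to 0.35 to 0.99 and 0.15 to 0.77, with 0 of them passing the filter and Elane listed at 0. Lymphocyte markers, all 10 matched, gave 2.48 to 3.12 and 1.27 to 3.95, with Cd3d, Cd3g and Cd79b listed at 0. Astrocyte markers, a large source of Apoe, summed to 2330 to 2643 FPKM in controls and 2334 to 2387 with lidocaine. Neuron markers gave 1673 to 1750 and 1711 to 1847, endothelial and mural markers 68.9 to 93.7 and 74.5 to 80.0, and choroid plexus markers 3.11 to 9.05 and 2.21 to 5.37. All 7 of these sums overlapped between the groups, and their part in the values of the 10 genes was not tested.

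**Figure D5:**
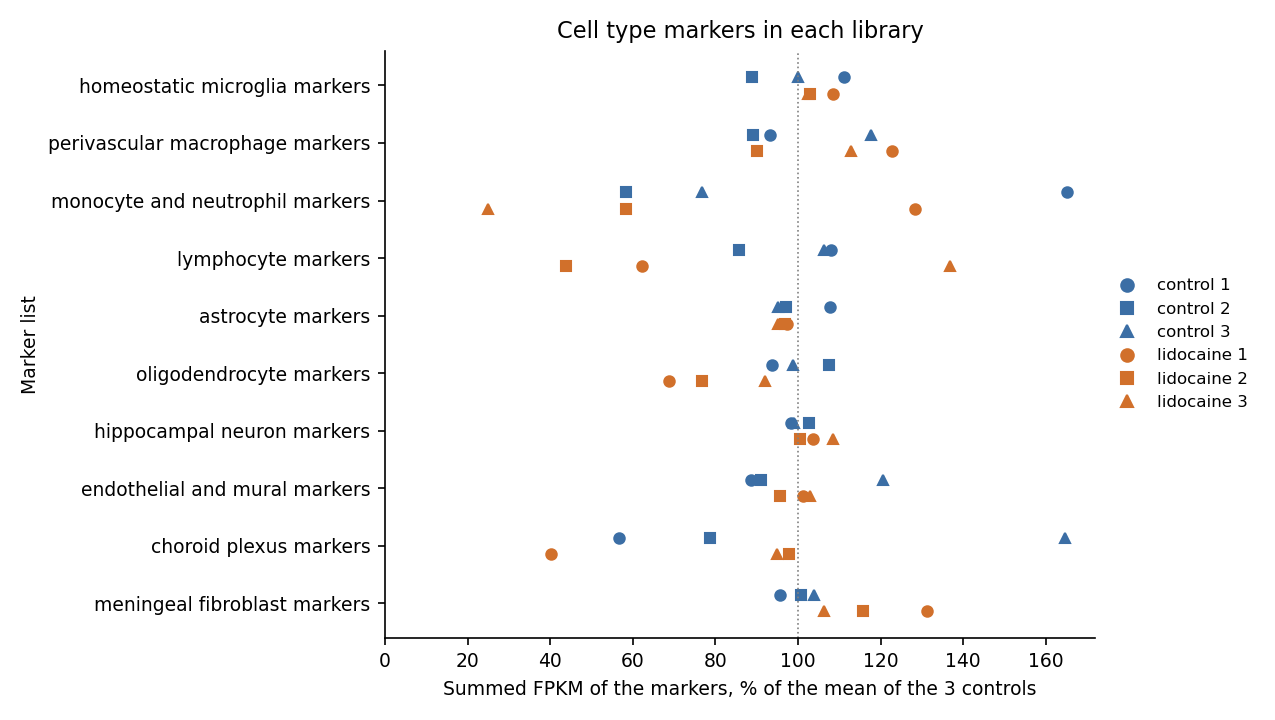
Summed FPKM of each cell type marker list per library, as a percentage of the mean of the 3 controls, with the 10 activated microglia genes left out. Lidocaine libraries lie below the controls for oligodendrocyte markers (68.8% to 91.9%) and above them for meningeal fibroblast markers (106.2% to 131.1%), and the groups overlap for the other 8 lists.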

How the data were processed

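Per the labels' protocols, total RNA of mouse hippocampus was extracted with an RNeasy kit and sequenced after SMARTer mRNA library preparation. The build mm10 is named in the submitters' processing notes, while all row identifiers are rat. Aligner, counting program and annotation: not given in the sources used here. Per the file headers, the authors deposited an estimated count, not normalised, and an FPKM value per gene and library, and 30.4% of genes are fractional in 1 library or more. Column names were matched to sample titles by group initial and replicate number, and do not state age.

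Counts were rounded, filtered with filterByExpr (0.625 CPM in at least 3 libraries), scaled by TMM (factors 0.991 to 1.009) and tested with edgeR 4.0.16 in R 4.3.3 (quasi-likelihood, robust, two-sided), with Benjamini-Hochberg adjustment over 13408 genes and calls at 0.05. Intervals at 95% and standard errors come from the F statistic. Counting error is 100% over the square root of the mean count. Tested on simulated data, the procedure made more false calls than the threshold aims at. It missed most of the smaller planted changes and part of the larger ones, so a gene not called can still differ. With 3 libraries per group an exact permutation test cannot go below p = 0.1. Alternatives were DESeq2 1.42.0, limma 3.58.1 (voom, and with trend on log2(FPKM + 1) or log2(FPKM + 0.1)), other scalings and filters, a replicate block and leaving out each library. All pairs of libraries differed beyond sampling noise (chi-square of 9.89 to 17.2 per degree of freedom).

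The members, lists and tests were chosen with earlier results of these data known. Besides the 10 genes, the text names 20 fixed partners, of which Ly96 matched no row, and up to 4 genes per pathway list with the smallest p. Map3k7 and single markers listed at 0 were named after their values were seen. Members were left out of the marker sums.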

Additional observations from a re-analysis of the deposited data

How the results depend on the processing

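Of 143 refits of the 9 tested activated microglia genes, 138 kept the direction and 0 called a gene, the lowest adjusted p being 0.913; the sign turned in 5, all by leaving out 1 library, where Apoe ranged from -0.12 to 0.35, Tlr2 from -0.37 to 0.18 and Tlr4 from -0.22 to 0.04 (0.0372) on the log2 scale. Trem2 ranged from -3.38 to -0.43, and it had no value with a mean count of at least 10. Members at an unadjusted p under 0.05 numbered 2, 1 in DESeq2, 1 in limma-voom and 0 to 2 when each library was left out. Pathway genes at that p numbered 2, 4 with no scaling factor, 1 in DESeq2 and 1 to 5 when each library was left out. Over all genes, 0 were called higher and 2 lower in edgeR; DESeq2 called 13 and 9, limma on log2(FPKM + 0.1) called 1 and 4, edgeR without the robust option called 0 lower, and leaving out each library gave 0 to 1 and 0 to 6. Deviations of same-numbered libraries from their group means correlated at -0.001 to 0.045, and those of differently numbered libraries at -0.043 to 0.017. With so few libraries per group, these values cannot tell whether same-numbered libraries share a litter or day. With the replicate block, edgeR called 0 genes lower and no member. The causes were not tested. Among 47 named pathway and marker genes, 722 of 752 refits kept the direction; in FPKM, Tyro3 was at 0.0099 and 0.0101 and Ncf1 at 0.0102 and 0.0212. When each library was left out, log2 fold changes ranged from -0.12 to 0.13 for Tyrobp, -0.09 (-0.0891) to 0.09 (0.0887) for Myd88, -0.06 (-0.0611) to 0.0022 for Gas6, -0.01 (-0.0148) to 0.01 (0.0132) for Tyro3, -0.19 to 0.09 (0.0871) for Cyba, -0.28 to 0.07 (0.0689) for Ncf1, -0.09 (-0.0919) to 0.04 (0.0415) for Lrp1, -0.02 (-0.0154) to 0.19 for Aif1, -0.11 to 0.10 for Cx3cr1, -0.04 (-0.0379) to 0.17 for Csf1r, -0.19 to 1.57 for Apoa5, -0.21 to 0.03 (0.0269) for Angptl4, -0.85 to 0.08 (0.0833) for Socs3, -0.01 (-0.0068) to 0.16 for Pros1, -0.22 to 0.27 for Rac2 and -0.04 (-0.0389) to 0.12 for Sod3. Spp1, Cd68, Cybb, Trem2 and Cd14 rest on 5.57 to 36.3 counts per library on average. The spread of Trem2, 87.4% of its mean in controls and 145.1% with lidocaine, was beyond its counting error of 30.7% and 42.4%.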
